A study of Mus musculus with 6 samples.

Results

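The genes described here are 10 host genes of the p53 and Rb pathways, Trp53, Mdm2, Cdkn1a, Ccng1, Cdkn2a, Cdkn2c, Rb1, Rbl1, E2f1 and Ube3a, which the E6 and E7 oncogenes carried by TC-1 cells are known to disturb. They were chosen by symbol in the platform annotation of the probes in the authors' value table, and 8 of the 10 had a probe there, with 17 probes in all, out of 7807 named genes and 13545 probes tested in the series. No probe named here measured Trp53 or Ube3a. TC-1 is a mouse lung line of C57BL/6 origin into which the E6 and E7 genes of HPV16 and an activated human Ha-ras gene had been introduced together. TC-1/A9, its variant with deficient MHC class I, was isolated from tumours that TC-1 had formed in immunized animals, so every array below comes from 1 cell line that carries these oncogenes. RNA of TC-1/A9 cells treated with IFNγ (50 U/ml by the labels, for 24 h; the transcriptome methods give a different dose) and of untreated TC-1/A9 cells was measured on Mouse WG6 bead arrays of Illumina. There were 3 biological replicates in each group, or 6 arrays in all. The levels of the viral oncogenes were not analysed here.

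In cells with intact control of division, p53 is a transcription factor that is held at a low level by the ubiquitin ligase Mdm2 and that, when released, switches on genes such as Cdkn1a, which encodes the CDK inhibitor p21. The Rb proteins hold E2F transcription factors inactive until cyclin-dependent kinases phosphorylate them, and the INK4 inhibitors oppose those kinases. High-risk papillomavirus E6 recruits the ligase E6AP, the product of Ube3a, to degrade p53, while E7 binds Rb and its relatives and frees E2F. IFNγ, a cytokine of T cells and NK cells, induces genes whose promoters often hold a short motif called the gamma interferon activated site.

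The promoter stretches below are shown because they hold letters that match a p53 half-site or an E2F site in members. Beside them stands Irf1, an IFNγ target gene measured on the same arrays. Whether p53 or E2F acts through these matches was not tested. The stretches come from RefSeq (GRCm38.p6), run 5′ to 3′ on the strand of the gene and lie upstream of its start. Capitals mark the motif. In Mdm2 (chr10:117710910-117710969, minus strand), Cdkn1a (chr17:29090892-29090951, plus strand) and Ccng1 (chr11:40755437-40755496, minus strand) the capitals are p53 half-sites. In Rbl1 (chr2:157204535-157204594, minus strand) they are an E2F site, and in Irf1 (chr11:53769898-53769957, plus strand) a gamma interferon activated site.
Mdm2: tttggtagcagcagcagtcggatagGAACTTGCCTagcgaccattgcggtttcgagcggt
Cdkn1a: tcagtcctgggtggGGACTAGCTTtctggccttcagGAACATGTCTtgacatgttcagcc
Ccng1: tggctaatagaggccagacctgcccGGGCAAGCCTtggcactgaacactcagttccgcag
Rbl1: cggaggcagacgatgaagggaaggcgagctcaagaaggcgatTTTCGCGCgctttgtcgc
Irf1: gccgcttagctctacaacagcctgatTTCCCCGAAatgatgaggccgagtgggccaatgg

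RefSeq promoter windows of 300 bases, 250 before and 50 after a start, matched 9 of the 10 genes with 12 windows, and Rb1 was not matched. On both strands, the gamma interferon activated site TTCNNNGAA was in 0 of the 12 member windows and in 8.30% of all 32851 windows. The p53 half-site was in 4 of the 12 member windows, of Trp53, Mdm2, Cdkn1a and Ccng1, and in 8.36% of all windows. The E2F site, TTTCGCGC or TTTGGCGC, was in the window of Rbl1 alone among the members and in 0.813% of all windows. Matches of different motifs overlapped in 0 of the 14 windows of the members and Irf1. A match describes the letters only, and sites outside these windows were not searched.

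Values below are log2 signals after quantile normalization over all 45281 probes of the array, and each probe is compared only with itself, since probes differ in brightness. A probe was called at an FDR below 0.01 (limma, Benjamini-Hochberg over 13545 probes). Between 11504 and 12423 probes were detected per array at a detection p of 0.01 or less. Of the markers of other cells, the leukocyte genes Cd68 and Csf1r and the endothelial gene Kdr had summed intensities of 131 to 151 and 62.0 to 81.3 on IFNγ arrays, against 136 to 173 and 73.8 to 81.1 on untreated arrays, and none of them was detected on all 6 arrays. Tested probes named here covered 2 of 8 leukocyte and 1 of 4 endothelial markers, and 0 of 8 epithelial markers. Of 7 fibroblast markers, 2 had such a probe, Vim and Dcn, and both were detected on every array. IFNγ replicate 3 stood apart. Its log2 signals over all probes correlated with IFNγ replicates 1 and 2 at r of 0.991 and 0.989, and replicates 1 and 2 with each other at 0.995. It was the array of its group farthest from the other two for 54.8% of all tested probes, and for 10 of the 17 member probes. Untreated replicate 1 was farthest in its own group for 42.5% of all tested probes, and likewise for 10 of the 17 member probes.

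No member was called after IFNγ in TC-1/A9 cells. Of the 17 member probes, 0 were called higher and 0 lower in limma, where 1.04% of all tested probes were called higher and 0.0148% lower. At an unadjusted p under 0.05, 3 member probes were higher and 0 lower, against 4.16% and 3.64% of all tested probes. All 17 were detected on all 6 arrays, so none of these 17 passed the filter on dim probes through 1 group only. Detection was in part built into their choice, since they came from the authors' value table of 12421 probes. As many probes were detected in 2 or more replicates of IFNγ or of untreated cells. Whether dimmer probes of these genes, or of Trp53 and Ube3a, were left out in this way was not tested. The log2 fold changes of the 17 probes ran from -0.24 to 0.34, with standard errors of 0.10 to 0.21, and 7 were positive and 10 negative. Their median was -0.076 by probe, against -0.012 over all tested probes. By gene, with the brightest probe of each, 4 were positive and 4 negative. The median by gene was -0.0017, against -0.015 over all genes tested. The 95% intervals of the 17 probes, which are not adjusted for the number of probes, all lay between -0.70 and 0.56. At this FDR the smallest change that was called for any probe on these arrays was 0.56 in size. That is not a size above which every change is called. In simulated data, 6.88% of changes of 0.5 and 76.6% of changes of 1 log2 unit were recovered at this FDR. In RNA of whole cultures, fewer cells that express a gene and less RNA per cell cannot be told apart.

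**Figure D1:**
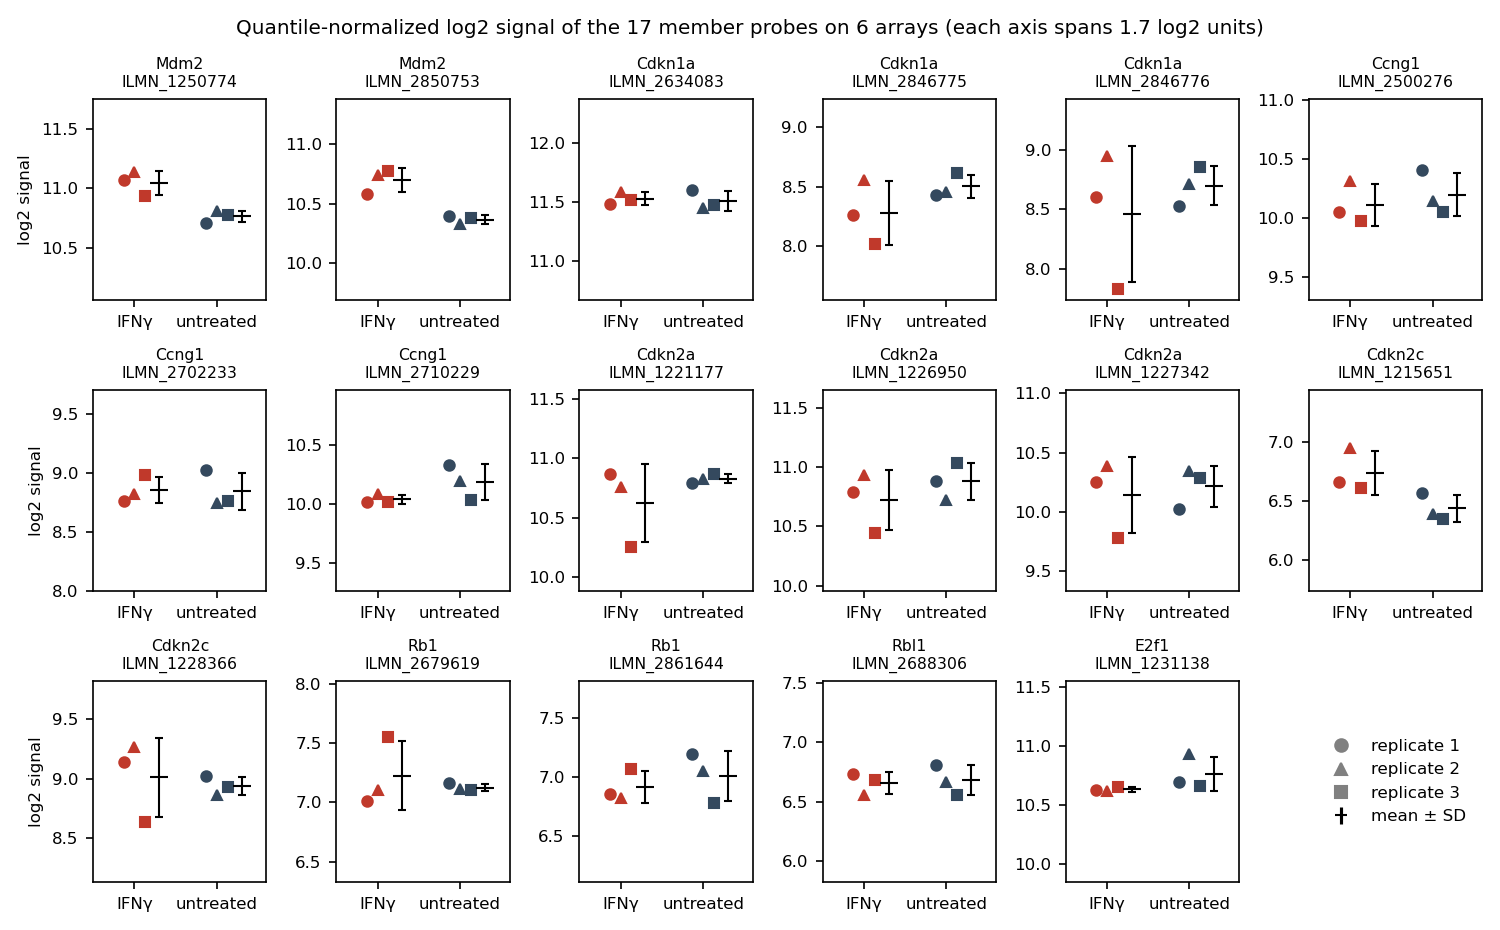
Quantile-normalized log2 signal (y axis) of the 17 member probes in IFNγ and untreated TC-1/A9 cells, a panel for each probe, with a point for each array and the mean ± SD of 3 arrays. The groups separate for both Mdm2 probes and 1 Cdkn2c probe, with IFNγ above, and for E2f1 by a small gap, with IFNγ below.

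Mdm2, the ubiquitin ligase that marks p53 for degradation and is itself a p53 target gene, had every IFNγ array above every untreated array by both of its probes, without passing the test. Its probe ILMN_1250774 had log2 signals of 11.07, 11.14 and 10.93 in IFNγ replicates 1, 2 and 3, against 10.71, 10.80 and 10.77 in untreated replicates 1, 2 and 3. The lowest IFNγ array was thus above the highest untreated array. The means were 11.05 ± 0.10 after IFNγ and 10.76 ± 0.05 in untreated cells (SD, n = 3 each). The log2 fold change was 0.28, with a standard error of 0.11 and a 95% interval of 0.055 to 0.51 (adjusted p = 0.480 from limma). The other probe, ILMN_2850753, read 10.58, 10.74 and 10.78 after IFNγ, against 10.39, 10.32 and 10.38 in untreated cells, and its groups did not overlap either. Its log2 fold change was 0.34 (standard error 0.11, 95% interval 0.11 to 0.56, adjusted p = 0.287 from limma), which is 1.26-fold with an interval of 1.08 to 1.48. Among all tested probes, 6.32% had every IFNγ array above every untreated array and 6.88% had every one below, against 3 and 1 of the 17 member probes. The separation of Mdm2 appeared with the normalization. Before it, the bead intensities of ILMN_1250774 were 2503, 1938 and 1657 on IFNγ arrays, against 2321, 1794 and 1487 on untreated arrays, so the groups overlapped. Over the alternatives, the adjusted p of this probe ranged from 0.047 to 0.996 and that of the other from 0.109 to 0.986, and the log2 fold changes stayed positive, at 0.18 to 0.34 and 0.24 to 0.39.

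The other p53 target genes among the members, Cdkn1a and Ccng1, did not pass the test either. Their promoter stretches printed above hold letters that match the p53 half-site. Cdkn1a was measured by 3 probes. ILMN_2634083 read 11.48, 11.58 and 11.52 after IFNγ, against 11.60, 11.45 and 11.48 in untreated cells, so the groups overlapped throughout, and the log2 fold change was 0.019 (95% interval -0.21 to 0.24, adjusted p = 0.975 from limma). For ILMN_2846775 the signals were 8.26, 8.56 and 8.01 after IFNγ, against 8.43, 8.46 and 8.62 in untreated cells, a log2 fold change of -0.22 (95% interval -0.51 to 0.068, adjusted p = 0.707). ILMN_2846776 read 8.60, 8.95 and 7.83 after IFNγ, against 8.53, 8.72 and 8.86 in untreated cells, a log2 fold change of -0.24 (95% interval -0.70 to 0.22, adjusted p = 0.796). On these last 2 probes IFNγ replicate 3 was the lowest of the 6 arrays, and IFNγ replicate 2 lay above both other IFNγ arrays. Leaving out each array in turn moved ILMN_2846775 between -0.36 (without IFNγ replicate 2, 95% interval -0.64 to -0.082, adjusted p = 0.334) and -0.091 (without IFNγ replicate 3). It moved ILMN_2846776 between -0.48 (without IFNγ replicate 2, 95% interval -0.88 to -0.081, adjusted p = 0.374) and 0.078 (without IFNγ replicate 3). ILMN_2634083 stayed between -0.011 and 0.066.

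Ccng1 encodes cyclin G1, a p53-induced partner of protein phosphatase 2A. ILMN_2500276 read 10.05, 10.31 and 9.97 after IFNγ, against 10.40, 10.14 and 10.05 in untreated cells. ILMN_2702233 read 8.76, 8.82 and 8.98 after IFNγ, against 9.02, 8.75 and 8.76 in untreated cells. The groups overlapped on both, with log2 fold changes of -0.085 (95% interval -0.36 to 0.19) and 0.0076 (-0.24 to 0.26). For ILMN_2710229, IFNγ arrays read 10.02, 10.08 and 10.02, against 10.33, 10.20 and 10.03 on untreated arrays, a log2 fold change of -0.15 (95% interval -0.39 to 0.092). Untreated replicate 1 was the highest array on all 3 probes of Ccng1, and without it the log2 fold changes were 0.018, 0.097 and -0.076. The lowest values on leaving out an array were -0.18 (IFNγ replicate 2), -0.055 (IFNγ replicate 3) and -0.22 (untreated replicate 3). With all arrays, the adjusted p-values from limma were 0.891, 0.994 and 0.767.

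Cdkn2a, which encodes both the CDK inhibitor p16INK4a and the Mdm2 inhibitor p19ARF from different reading frames, was detected on every array, and none of its 3 probes passed the test. Both transcript forms were annotated, with ILMN_1221177 and ILMN_1226950 listed for the p19ARF transcript and ILMN_1227342 for the p16INK4a transcript. The sources used here do not give where on these transcripts the probes lie, so the forms cannot be told apart from the annotation alone. ILMN_1221177 read 10.87, 10.76 and 10.25 after IFNγ, against 10.80, 10.83 and 10.86 in untreated cells, a log2 fold change of -0.205 (95% interval -0.52 to 0.105, adjusted p = 0.756 from limma). ILMN_1226950 read 10.79, 10.93 and 10.45 after IFNγ, against 10.89, 10.72 and 11.03 in untreated cells, a log2 fold change of -0.16 (-0.45 to 0.14, adjusted p = 0.786). ILMN_1227342 read 10.25, 10.39 and 9.78 after IFNγ, against 10.02, 10.34 and 10.29 in untreated cells, a log2 fold change of -0.076 (-0.40 to 0.25, adjusted p = 0.920). IFNγ replicate 3 was the lowest of the 6 arrays on all 3 probes. Without it the log2 fold changes were -0.019, -0.019 and 0.11, the highest that leaving out an array gave. The lowest were -0.33 for ILMN_1221177 (without IFNγ replicate 1), and -0.26 for ILMN_1226950 and -0.20 for ILMN_1227342 (both without IFNγ replicate 2), and none was called.

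Cdkn2c encodes p18INK4c, another inhibitor of the kinases Cdk4 and Cdk6. Its probes gave unequal values. The dim one, ILMN_1215651, read 6.66, 6.95 and 6.61 after IFNγ, against 6.57, 6.39 and 6.35 in untreated cells, with every IFNγ array above every untreated array. Its log2 fold change was 0.30 (standard error 0.12, 95% interval 0.041 to 0.56, adjusted p = 0.542 from limma). It was 0.46 with neqc background correction (adjusted p = 0.421) and 0.20 without IFNγ replicate 2 (95% interval -0.073 to 0.47, adjusted p = 0.581). The signals lie close to the lowest that were detected, which ranged from 6.07 to 6.18 over the 6 arrays, and its bead intensities were 110, 108 and 94.7 on IFNγ arrays, against 115, 83.2 and 74.3 on untreated arrays, where the median of all probes was 48.7 to 55.4. ILMN_1228366 read 9.14, 9.26 and 8.63 after IFNγ, against 9.02, 8.86 and 8.93 in untreated cells. IFNγ replicates 1 and 2 were above the untreated arrays and IFNγ replicate 3 below them, which left a log2 fold change of 0.074 (95% interval -0.24 to 0.39, adjusted p = 0.920). Without IFNγ replicate 3 the 2 probes had log2 fold changes of 0.37 (95% interval 0.12 to 0.61, adjusted p = 0.195) and 0.26 (0.044 to 0.48, adjusted p = 0.456), and both then had IFNγ arrays above all untreated arrays, which held for 9.53% of all tested probes. ILMN_1228366 turned to -0.052 without IFNγ replicate 2. With array weights, which gave IFNγ replicate 3 a weight of 0.23, the adjusted p of ILMN_1215651 was 0.047, the lowest over its alternatives, which reached 0.996. Mdm2 by ILMN_1250774 likewise had its lowest adjusted p, 0.047, there, and neither was below the threshold of 0.01.

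Of the pocket proteins, which E7 binds, and E2f1, which they hold inactive, no probe was called. Rb1, the retinoblastoma protein gene, was dim on both probes. ILMN_2679619 read 7.01, 7.11 and 7.55 after IFNγ, against 7.16, 7.11 and 7.10 in untreated cells, a log2 fold change of 0.10 (95% interval -0.19 to 0.39, adjusted p = 0.878 from limma). IFNγ replicate 3 was the highest array here, and the log2 fold change was -0.064 without it and 0.21 without IFNγ replicate 1. ILMN_2861644 read 6.86, 6.82 and 7.07 after IFNγ, against 7.19, 7.05 and 6.78 in untreated cells, a log2 fold change of -0.091 (-0.36 to 0.18, adjusted p = 0.882). Both pairs of groups overlapped. The value of ILMN_2861644 moved between -0.20 (without untreated replicate 3) and 0.0022 (without untreated replicate 1).

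Rbl1 encodes p107, the pocket protein that binds repressor E2Fs, and its own promoter stretch above holds an E2F site. Its only named probe, ILMN_2688306, read 6.73, 6.55 and 6.68 after IFNγ, against 6.81, 6.67 and 6.56 in untreated cells, a log2 fold change of -0.022 (95% interval -0.26 to 0.22, adjusted p = 0.972 from limma). Leaving out untreated replicate 3 gave -0.082, and leaving out untreated replicate 1 gave 0.043. E2f1, the activator E2F that drives entry into S phase, was measured by ILMN_1231138. Its signals were 10.62, 10.62 and 10.66 after IFNγ, against 10.70, 10.93 and 10.66 in untreated cells. Every IFNγ array was below every untreated array, although the nearest values, 10.656 and 10.664, hardly differed. The means were 10.63 ± 0.02 after IFNγ and 10.76 ± 0.14 in untreated cells (SD, n = 3 each), which gave a log2 fold change of -0.13 (95% interval -0.37 to 0.11, adjusted p = 0.782). Without untreated replicate 2, the highest array, it was -0.046.

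**Figure D2:**
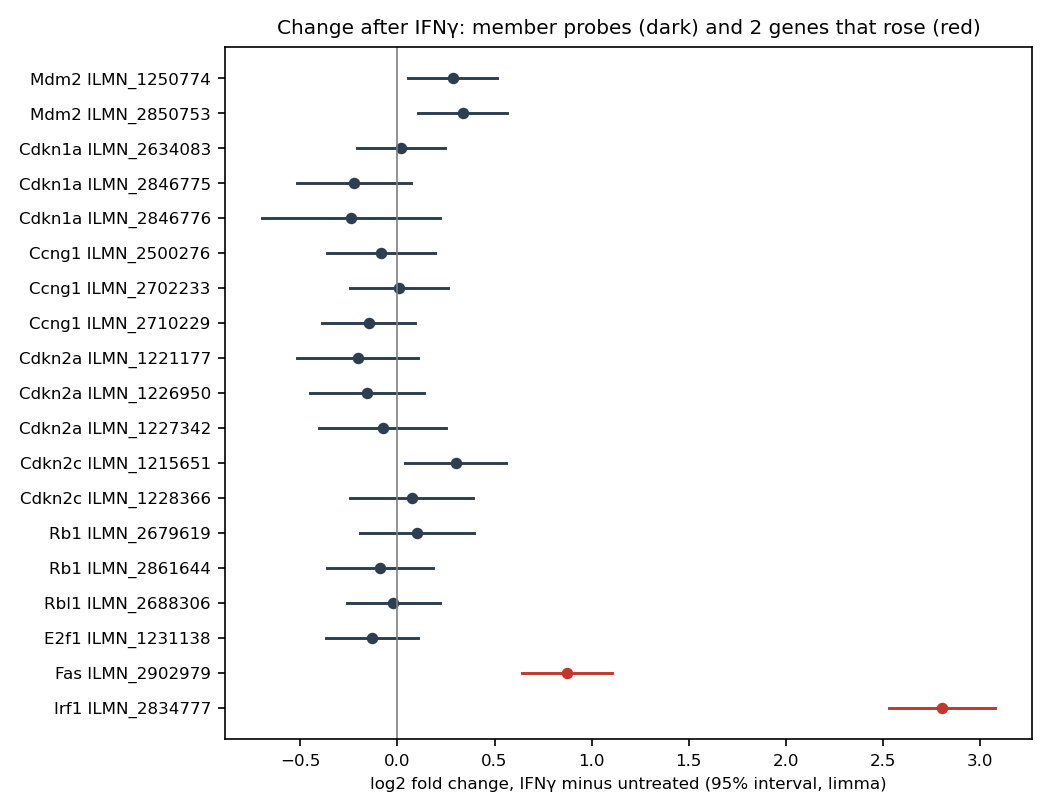
Log2 fold change, IFNγ minus untreated, with its 95% interval from limma (x axis), of the 17 member probes (dark) and of the brightest probes of Fas and Irf1 (red). The member intervals lie between -0.70 and 0.56, whereas Irf1 is at 2.80 and Fas, detected on 1 of 3 untreated arrays, at 0.87.

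IFNγ replicate 3 was the lowest IFNγ array on every probe of Cdkn2a and Cdkn2c. The same held for 2 of 3 probes each of Cdkn1a and Ccng1, and for ILMN_1250774 of Mdm2. This array was the lowest of the 6 arrays on 8 of the 17 member probes, against 30.6% of all tested probes. Leaving it out turned the sign of 4 probes, 1 each of Cdkn1a, Ccng1, Cdkn2a and Rb1. Leaving out IFNγ replicate 2 or untreated replicate 1 turned the sign of 3 each, untreated replicate 2 of 2, untreated replicate 3 of 1 and IFNγ replicate 1 of 0. None of these fits called a member.

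**Figure D3:**
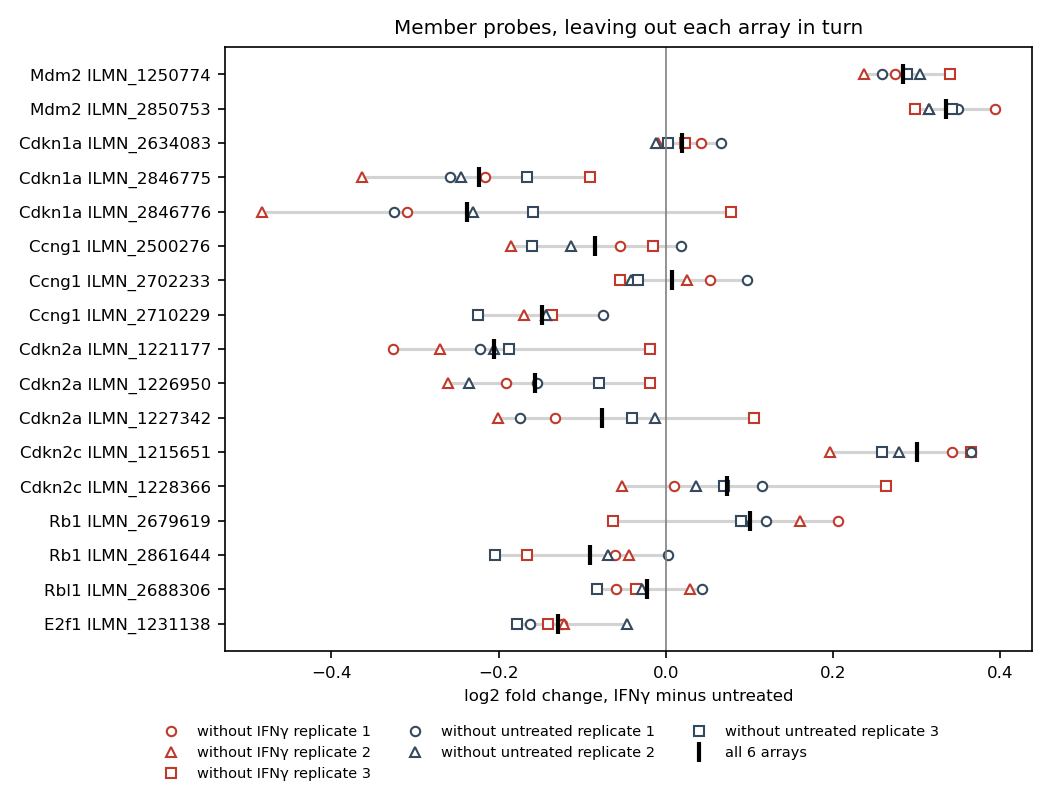
Log2 fold change, IFNγ minus untreated (x axis), of the 17 member probes with all 6 arrays (black bars) and without each array in turn (open symbols, red for an IFNγ array left out and dark for an untreated one). Both Mdm2 probes stay above 0, at 0.24 to 0.34 and 0.30 to 0.39, whereas ILMN_2846776 of Cdkn1a runs between -0.48 and 0.078.

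The wider p53 and Rb pathways, and other host proteins that bind E6 or E7, were described through lists of 118 genes without the members. Of these genes, 88 were measured. Among the 88, 2 were called higher and 0 lower, against 1.33% and 0.0256% of the 7807 genes tested. They were Fas, from the list of p53 target genes, and Irf1, from the list of other host partners of E6 and E7. At an unadjusted p under 0.05 limma gave 9 of the 88, or 10.2%, against 8.49% of all genes tested. Their median log2 fold change was 0.019, against -0.015 over all genes tested. The study's own gene lists include both Fas and Irf1, which it chose on these samples.

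Of 22 measured p53 target genes, 1 was called higher, 0 were called lower and 21 were not called, with a median log2 fold change of -0.044. Fas, the death receptor that p53 and interferon are both known to induce, read 7.01, 7.04 and 6.88 after IFNγ, against 6.16, 6.15 and 5.99 in untreated cells. All IFNγ arrays were above all untreated arrays, and it was detected on 3 IFNγ arrays and 1 untreated array. Its log2 fold change was 0.87 with a standard error of 0.11 (adjusted p = 3.00e-04 from limma). With untreated arrays set no lower than their lowest detected signal, Fas was at least 1.75-fold higher after IFNγ. The other 21 lay between -0.31 for Phlda3, a p53-induced inhibitor of Akt signalling, and 0.29 for Trp53inp1, a stress-induced partner of p53. Neither passed the test (adjusted p = 0.562 and 0.472), and they are named for their place at the ends of the list, after their values were seen.

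None of 13 measured regulators of p53 was called, and their median log2 fold change was 0.098. The brightest were Atm, the kinase that signals DNA double-strand breaks to p53, and Usp7, the deubiquitinase of p53 and Mdm2. Atm by its brightest probe read 9.36, 9.48 and 9.31 after IFNγ, against 8.94, 8.95 and 8.88 in untreated cells. The groups did not overlap, and the log2 fold change was 0.46 with a standard error of 0.10 (adjusted p = 0.0495 from limma), which misses the threshold. Its other probes, ILMN_1258206 and ILMN_2783896, had 0.43 (adjusted p = 0.494) and 0.20 (adjusted p = 0.721). For ILMN_1258206 the groups overlapped, with IFNγ replicate 1 at 6.78 and untreated replicate 1 at 6.91. ILMN_2783896 was dim and was detected on 3 IFNγ arrays and 1 untreated array. Atm was called with array weights, without IFNγ replicate 3 and at an FDR below 0.05. Usp7 had a log2 fold change of 0.24 (adjusted p = 0.746), which was 0.023 without IFNγ replicate 3 and 0.41 without IFNγ replicate 2.

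Among the other CDK inhibitors, 0 of 4 were called and their median log2 fold change was -0.16. Only 2 of the 4 were detected on all 6 arrays. Cdkn1b was detected on 2 IFNγ and 0 untreated arrays, so its untreated level is only a bound. Cdkn1c was detected on 2 IFNγ and 3 untreated arrays. Cdkn2b, which encodes p15INK4b beside Cdkn2a in the genome, read 8.92, 9.13 and 8.82 after IFNγ, against 9.42, 9.12 and 9.48 in untreated cells. Untreated replicate 2 fell among the IFNγ arrays, and the log2 fold change was -0.38 with a standard error of 0.13 (adjusted p = 0.350 from limma). Cdkn2d, which encodes p19INK4d, had -0.20 (adjusted p = 0.708).

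Of the cyclins and kinases of G1 and S phase, listed with the phosphatase Cdc25a, 0 of 8 measured genes were called. Their log2 fold changes ran from -0.24 to 0.44, with a median of 0.029. The gene at 0.44 was at 0.18 without IFNγ replicate 3. Ccnd1, which encodes cyclin D1, had a log2 fold change of 0.00099 (adjusted p = 0.999 from limma), and Ccnd3, cyclin D3, had 0.14 (adjusted p = 0.757). In the family of Rb, E2F and DP proteins and the MuvB complex, 0 of 9 were called, with values from -0.31 to 0.24 and a median of 0.0064. The brightest of these were Tfdp1, the DP partner of E2F, with 0.11 (adjusted p = 0.854), and E2f6, a repressor E2F, with -0.053 (adjusted p = 0.928). Without IFNγ replicate 3 they were 0.0013 and -0.14. E2F target genes, most of them for DNA replication, were called in 0 of 16. They had 12 positive and 4 negative values, from -0.088 to 0.28, and a median of 0.078, where 46.2% of all genes tested were positive. Without IFNγ replicate 3 the E2F target genes had 6 positive and 10 negative values and a median of -0.019, and 43.9% of all genes tested were positive. Mcm4 and Mcm5, subunits of the replicative helicase, had log2 fold changes of 0.071 (adjusted p = 0.907) and 0.14 (adjusted p = 0.836), which without IFNγ replicate 3 were -0.042 and -0.060.

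Of 16 measured other host proteins that bind E6 or E7, 1 rose and 15 did not pass the test, with a median log2 fold change of 9.0e-04. Irf1, the interferon-induced transcription factor that E7 has been reported to bind, read 12.53, 12.76 and 12.97 after IFNγ, against 10.04, 9.81 and 10.00 in untreated cells by its brightest probe, and the groups stood far apart. The log2 fold change was 2.80 with a standard error of 0.13 (adjusted p = 6.44e-09 from limma), and all 5 of its probes were called. The dimmest of them, ILMN_2624100, was detected on 3 IFNγ arrays and 0 untreated arrays. It thus passed the filter through the IFNγ group only, and its untreated level is only a bound. The other 15 ranged from -0.30 for Mgmt, a DNA repair enzyme, to 0.25 for Ptpn14, a phosphatase that E7 is known to target, and neither passed the test (adjusted p = 0.665 and 0.543). Without IFNγ replicate 3 Mgmt was at -0.11. These 2 were also named after their values were seen.

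**Figure D4:**
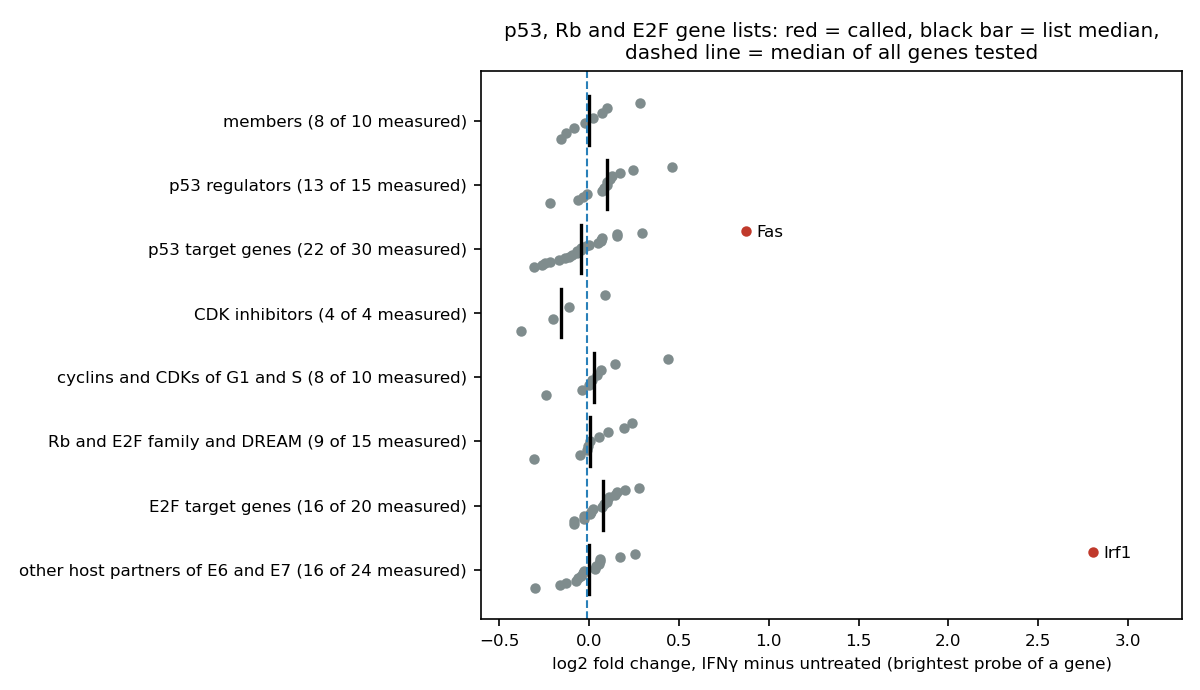
Log2 fold change, IFNγ minus untreated (x axis), of each measured gene by its brightest probe, in the member list and 7 pathway lists (rows), with called genes in red, list medians as black bars and the median of all genes tested as a dashed line. Fas and Irf1 are called, and the other listed genes lie between -0.38 and 0.46.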

How the data were processed

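The authors read Illumina Mouse WG6 bead arrays with BeadStudio and deposited an average bead intensity, not normalized between arrays, together with a detection p-value, for 45281 probes on 6 arrays. For the background setting of this step, nothing is given in the sources used here. Their value table, also deposited, holds log2 values that they made with the packages lumi and limma. Its 12421 probes differed by at most 4.97e-14 from the quantile-normalized log2 intensities, with a median of 7.56 in each column. No column was left unmapped.

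Log2 intensities were quantile normalized over all probes, a probe was kept if its detection p was 0.01 or less on at least 1 array, and the 13545 kept were compared with limma version 3.58.1 in R version 4.3.3 (lmFit and eBayes, IFNγ minus untreated, Benjamini-Hochberg, FDR below 0.01), after a test of the fit on simulated data. Symbols came from the platform annotation (11180 probes; 1241 of the value table had none) and, for the lists, were updated through Entrez ID (9809 probes), accession (729) or synonym (389). A gene's value is that of its brightest tested probe. It was called where at least 1 probe was called and none in the other direction.

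The members and lists were chosen with earlier results of these data known. Named are every member, up to 4 called genes of each list, or its 2 brightest where none was called. Alternatives covered background correction, normalization, the value table, detection filters, the variance model, weights for arrays, a block for the replicate number, leaving out each array, the FDR and the mean of a gene's probes. A slide as a block could not be fitted, since neither labels nor file headers give slides. The number of arrays limits the precision.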

Additional observations from a re-analysis of the deposited data

How the results depend on the processing

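Under 18 alternatives, 0 of the 306 log2 fold changes of member probes passed the threshold, and 0 members were called higher or lower in each. Of these values, 18, of 9 probes, had the other sign from that in the report. Alternatives that changed only the detection filter, the variance model, the replicate block or the FDR left the log2 fold changes of these probes as they were. So did the value table, and a sign could turn only under the remaining alternatives. Over all probes, 141 were called higher and 2 lower. With 75th-percentile centring these counts were 78 and 0, with probes detected on all 6 arrays 74 and 1, and with array weights 248 and 35. The count of lower probes was 1 with neqc background correction (offset 16), 1 with a trended and robust eBayes and 7 at an FDR below 0.05. Leaving out each array in turn gave 83 (without untreated replicate 3) to 172 (without IFNγ replicate 3) higher and 0 to 6 lower probes, with 92 higher without untreated replicate 1, and among the pathway lists 2 to 3 genes called higher (3 without IFNγ replicate 3). The listed genes called higher, 2 in the report, were 1 with probes detected on all 6 arrays, where Fas was filtered out, and 3 with array weights and at an FDR below 0.05, where Atm was added. The causes of the other shifts were not tested. With the replicate number as a block, 145 probes were called higher and 3 lower, 0 member probes were called, and the adjusted p of Mdm2 was 0.564 and 0.397. Deviations of same-numbered arrays from their group means had r of -0.19, 0.043 and -0.025. Whether the numbers pair the arrays cannot be told from this, since the deviations of 3 arrays sum to 0 in each group. The signal over background limits Cdkn2c by ILMN_1215651, Rb1 and Rbl1 most.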
